A study of Homo sapiens with 24 samples.

Results

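The transcription factor p53 and the genes it activates were followed through 24 RNA-sequencing libraries of renal carcinoma cells depleted of PAX8. The members were 9 p53 target genes, MDM2, TP53I3, TP53INP1, SESN1, FAS, BBC3, BAX, RRM2B and ZMAT3, out of 26475 genes in the files. They were chosen by symbol with earlier results of these data known, so comparisons of them with all genes are descriptive. All 9 passed the filter on low counts in both cell lines. 786-M1A and OS-LM1 are metastatic derivatives of the clear cell renal cell carcinoma (ccRCC) lines 786-O and OS-RC2, and both carry a luciferase transgene. Each line carried the control construct sgNTC18 or 1 of 2 constructs against the renal lineage factor PAX8, shPAX8-1 and shPAX8-2, with 4 libraries in each of the 6 groups. The labels name sgNTC18 as the control, a guide RNA and so another kind of construct than the hairpins, and an effect of construct type cannot be told apart from PAX8 depletion. Nothing in the labels says that replicates came from separate cultures, so p-values measure the spread between libraries, which may be technical.

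p53 is held at a low level by the ubiquitin ligase MDM2 and is stabilised by DNA damage and other stress. Bound to its response element, it raises genes that halt the cell cycle, trigger apoptosis, limit oxidative damage and supply nucleotides for repair, and it also raises MDM2, which closes a negative feedback loop. Target genes differ in how strongly they depend on p53, and many have other activators, so that they need not move together.

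Both hairpins are shown because every comparison rests on them. They were read from the study's oligonucleotide list as 22 bases each, with the seed (bases 2 to 8) in capitals.
shPAX8-1: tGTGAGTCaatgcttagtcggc
shPAX8-2: tAGAGTTGtgttaataatggag
The shPAX8-1 sequence had 1 exact match in hg38, at chr2:113241690-113241711, in coding exon sequence of PAX8 (untranslated in some transcripts), and its complement was in 10 of the 14 PAX8 transcripts of the GENCODE annotation. The shPAX8-2 sequence had 1 exact match, at chr2:113218122-113218143, in untranslated exon sequence of PAX8, and its complement was in 7 of the 14 transcripts. A match to the shPAX8-1 seed was present in the longest transcript of 17.1% of the tested genes and of 3 members (TP53INP1, FAS and RRM2B). For shPAX8-2 the share was 22.5%, and the 3 members were MDM2, FAS and ZMAT3.

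Letters that match the p53 response element were searched on both strands within 2000 bases of the RefSeq start of the 7 members in the RefSeq promoter table (build GRCh38). The element is a pair of decamers, here placed side by side, 20 bases in all, and at most 2 mismatches to the consensus were allowed, none at the fixed C and G of either decamer. Such letters were found at 4 of the 7 members, against 2.87% of 11228 tested genes. The members were chosen as p53 target genes, so a larger share than that of all genes could come from the choice alone. The 4 are shown 5′ to 3′ on the strand of the gene with the central 4 bases of each decamer in capitals.
ZMAT3: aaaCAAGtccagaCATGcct
FAS: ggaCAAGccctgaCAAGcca
MDM2: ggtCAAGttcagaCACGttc
BAX: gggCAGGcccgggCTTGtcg
The ZMAT3 letters matched the consensus at all 20 bases, as did 0.0713% of tested genes, and the other 3 had 2 mismatches. They began downstream of the start in each case: 1602 bases for ZMAT3 (chr3:179070188-179070207, minus strand, intronic), 511 for FAS (chr10:88991309-88991328, plus strand, exonic in some transcripts), 751 for MDM2 (chr12:68808923-68808942, plus strand, intronic) and 338 for BAX (chr19:48955213-48955232, plus strand, exonic in some transcripts). The starts used were chr3:179071809 for ZMAT3 and chr10:88990798 for FAS, which lie within the gene spans given below. For MDM2 and BAX the start was the first base of the span. A match is a description of the letters, not a measure of binding. These 4 genes did not share a response: in OS-LM1 with shPAX8 the levels of ZMAT3, MDM2 and FAS rose and that of BAX fell.

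Library totals ran from 11634419 to 52059375 expected counts (median 20511915). PAX8 was lowered in every library with a hairpin. In 786-M1A its normalized read count (CPM, a count scaled to library size with the trimmed mean of M values, TMM) was 292, 393, 360 and 319 with sgNTC18, between 14.8 and 22.9 with shPAX8-1 and between 40.0 and 45.5 with shPAX8-2. In OS-LM1 it was 262, 279, 245 and 254 with sgNTC18, between 59.9 and 89.2 with shPAX8-1 and between 63.8 and 97.0 with shPAX8-2. The depletion was thus 11.9-fold in 786-M1A and 3.33-fold in OS-LM1 by the mean of both constructs, and the difference between the lines was 1.87 ± 0.17 (log2, SE; edgeR adjusted p = 7.5e-10). The defining markers of endothelial and T cells (CDH5, PECAM1, KDR, CD3E) and the leukocyte gene PTPRC were at or near 0, while summed fibroblast markers ran from 4.10 to 271 TPM (a level scaled to transcript length and library size) and summed haematopoietic markers, nearly all CD68, from 73.5 to 364 TPM. In OS-LM1 both sums moved with PAX8 depletion, the fibroblast sum from 4.10 to 5.78 TPM with sgNTC18 to 29.7 to 59.7 TPM with the hairpins and the haematopoietic sum from 73.5 to 85.4 TPM to 189 to 324 TPM. In 786-M1A the fibroblast sum was 182 to 232 TPM with sgNTC18, lower at 55.7 to 126 TPM with shPAX8-1 and overlapping the controls at 198 to 271 TPM with shPAX8-2. The haematopoietic sum there was 197 to 215 TPM with sgNTC18, overlapping at 178 to 285 TPM with shPAX8-1 and higher at 286.5 to 363.5 TPM with shPAX8-2. Summed renal markers were lower with PAX8 depleted in both lines, at 8212 to 8791 TPM with sgNTC18 against 6379 to 7206 TPM with the hairpins in 786-M1A and at 7549 to 10063 against 4264 to 6281 TPM in OS-LM1. That sum is mostly VIM (3178 to 9345 TPM over all libraries), which is not particular to renal cells, and it includes PAX8 itself. The part of these sums in the results was not tested. In these bulk libraries, fewer cells that express a gene and less of its RNA per cell cannot be told apart.

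**Figure D1:**
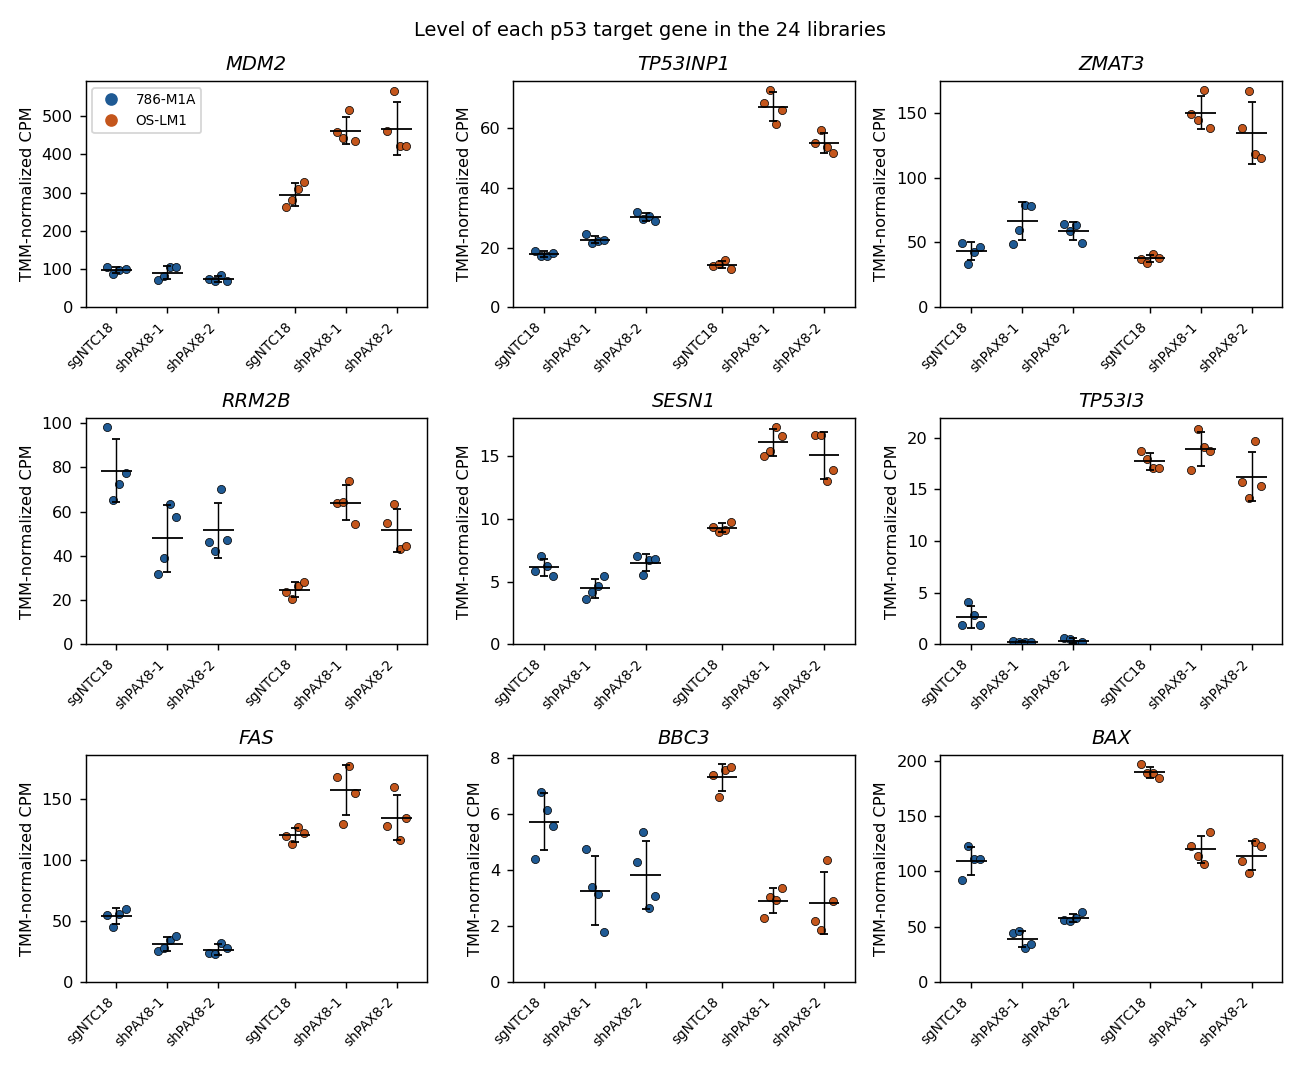
Level of the 9 p53 target genes in each of the 24 libraries (y axis: TMM-normalized CPM, linear and from 0), by construct (x axis) and line (blue 786-M1A, orange OS-LM1). Points are libraries, bars the mean and SD of 4. ZMAT3 and TP53INP1 stood at 115 to 168 and 51.9 to 72.9 CPM with either hairpin in OS-LM1, above every other group, and TP53I3 was at or below 4.15 CPM in every 786-M1A library.

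Depletion of PAX8 was compared with sgNTC18 within each line, first over both constructs together. In 786-M1A, 7 of the 9 members passed the test (edgeR quasi-likelihood test, adjusted p under 0.05), where 70.4% of all 14452 genes tested did: 5 fell (TP53I3, BAX, FAS, BBC3 and RRM2B; 34.7% of all genes fell) and 2 rose (TP53INP1 and ZMAT3; 35.7% of all genes rose). In OS-LM1, 8 of the 9 passed, where 73.4% of all 15049 genes tested did: 6 rose (TP53INP1, ZMAT3, RRM2B, SESN1, MDM2 and FAS; 36.4% of all genes rose) and 2 fell (BBC3 and BAX; 37.1% of all genes fell). The number of members called was near that background in both lines, so the results lie in the direction and size of each gene's change. The median log2 fold change of the members was -0.64 in 786-M1A and 0.65 in OS-LM1, against 0.04 and -0.01 over all genes.

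**Figure D2:**
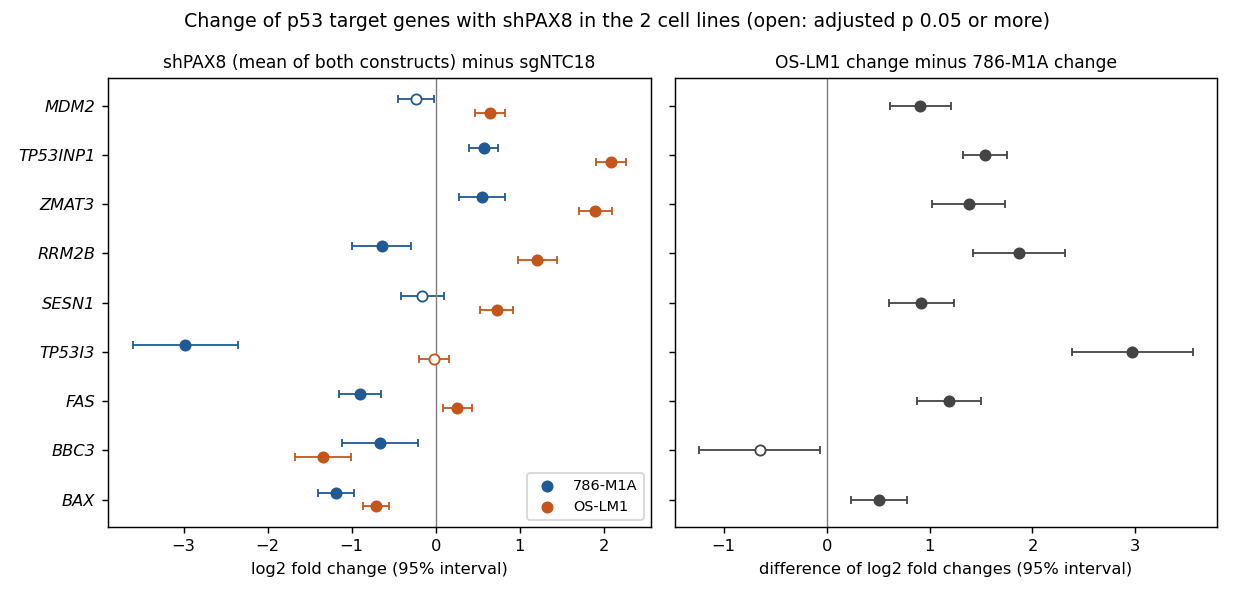
Left, log2 fold change of each p53 target gene between shPAX8 (mean of both constructs) and sgNTC18 in 786-M1A (blue) and OS-LM1 (orange). Right, the OS-LM1 change minus the 786-M1A change; bars are 1.96 standard errors each way, and open points had an adjusted p of 0.05 or more. FAS (-0.90 and 0.26) and RRM2B (-0.64 and 1.21) were called in opposite directions in the 2 lines, and BBC3 was the only member with a negative difference.

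MDM2 (chr12:68808172-68850686), the ubiquitin ligase that marks p53 for degradation, was at 105, 87.1, 97.3 and 101 CPM with sgNTC18 in 786-M1A. It was at 70.9, 80.6, 106 and 106 CPM with shPAX8-1 and at 74.9, 69.0, 84.8 and 68.4 CPM with shPAX8-2 in that line. The shPAX8-2 libraries all lay below the sgNTC18 libraries, while those of shPAX8-1 overlapped them. In OS-LM1 the level was 261, 282, 309 and 327 CPM with sgNTC18. It was 458, 441, 515 and 434 CPM with shPAX8-1 and 460, 566, 421 and 421 CPM with shPAX8-2, so that every hairpin library was above every control. MDM2 rose 1.57-fold in OS-LM1 (log2 fold change 0.65 ± 0.09 SE, adjusted p = 4.2e-06), whereas in 786-M1A the change was -0.23 ± 0.11 and did not pass (adjusted p = 0.084). The difference between the lines was 0.91 ± 0.15 (adjusted p = 9.1e-06). The 786-M1A value lay near the threshold. With the same libraries it was called with no filter beyond 1 count (-0.30, adjusted p = 0.029), with all 24 libraries in 1 fit (-0.25, 0.035) and with a trend with GC content removed (-0.52, 5.1e-08). It also moved with the shPAX8-1 libraries: it was -0.39 (adjusted p = 7.6e-04) with only their replicates 1 and 2, and -0.12 (adjusted p = 0.188) with only replicates 3 and 4. Leaving out shPAX8-1 replicate 3 or 4 alone gave -0.27 each time, with adjusted p = 0.042 and 0.037. For shPAX8-2 alone MDM2 fell in 786-M1A (-0.38, adjusted p = 0.023), and that call was lost without sgNTC18 replicate 1 (-0.35, adjusted p = 0.056) or 4 (-0.36, 0.051), or without shPAX8-2 replicate 2 (-0.34, 0.059) or 4 (-0.35, 0.051).

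TP53I3 (chr2:24077433-24084834), which encodes a quinone oxidoreductase tied to p53-driven oxidative stress, had the largest change of any member, in 786-M1A. Its level in 786-M1A was 1.85, 4.15, 2.81 and 1.89 CPM with sgNTC18. With shPAX8-1 it was 0.314, 0.235, 0.241 and 0.276 CPM, and with shPAX8-2 it was 0.626, 0.539, 0.0829 and 0.267 CPM. These are small numbers of reads, between 1 and 11 expected counts in each hairpin library against 43 to 87 in the controls, but the groups did not overlap. The fall was 7.87-fold (log2 fold change -2.98 ± 0.32, adjusted p = 9.2e-07). In OS-LM1 the gene was at 18.8, 18, 17.1 and 17.1 CPM with sgNTC18, between 16.9 and 20.9 CPM with shPAX8-1 and between 14.2 and 19.7 CPM with shPAX8-2. The groups overlapped, and the log2 change was -0.02 with an interval from -0.21 to 0.16 (adjusted p = 0.827). With the GC trend described further on removed, that change was 0.34 and was called. The lines differed by 2.97 ± 0.30 (adjusted p = 3.7e-09).

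SESN1 (chr6:108984309-109094846), a sestrin that restrains growth signalling under stress, was at 5.83, 7.02, 6.25 and 5.45 CPM with sgNTC18 in 786-M1A. It was at 3.61, 4.14, 4.70 and 5.41 CPM with shPAX8-1 and at 7.05, 5.5, 6.71 and 6.80 CPM with shPAX8-2. The shPAX8-1 libraries lay below the controls, the nearest by a narrow margin, and the shPAX8-2 libraries overlapped them. In OS-LM1 it was at 9.35, 8.93, 9.15 and 9.79 CPM with sgNTC18, between 15.0 and 17.3 CPM with shPAX8-1 and between 13 and 16.7 CPM with shPAX8-2. SESN1 rose 1.66-fold in OS-LM1 (0.73 ± 0.10, adjusted p = 1.9e-06), and the change in 786-M1A over both constructs was -0.16 ± 0.13 (adjusted p = 0.283). The lines differed by 0.92 ± 0.16 (adjusted p = 1.5e-05).

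Of the apoptosis genes, FAS (chr10:88964050-89017059), the death receptor for FAS ligand, moved in opposite directions in the 2 lines. In 786-M1A it was at 54.8, 45, 55.5 and 59.9 CPM with sgNTC18, at 25.0, 27.2, 34.4 and 37.0 CPM with shPAX8-1 and at 23.3, 22.6, 31.5 and 27.8 CPM with shPAX8-2. No hairpin library reached the lowest control, and the fall was 1.86-fold (-0.90 ± 0.13, adjusted p = 1.2e-05). The OS-LM1 libraries stood at 120, 113, 127 and 122 CPM with sgNTC18, at 168, 129, 177 and 155 CPM with shPAX8-1 and at 128, 160, 116 and 134 CPM with shPAX8-2. The shPAX8-1 libraries were all above the controls and the shPAX8-2 libraries overlapped them. The rise was 1.20-fold (0.26 ± 0.09, adjusted p = 0.016), and it was not called once a trend with GC content was removed (0.04, adjusted p = 0.586). The difference between the lines was 1.19 ± 0.16 (adjusted p = 5.3e-07), and 1.17 with that trend removed.

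BAX (chr19:48954875-48961798), which permeabilises the outer mitochondrial membrane, fell in both lines. It was at 92.3, 123, 112 and 112 CPM with sgNTC18 in 786-M1A, at 43.9, 46.1, 30.0 and 34.5 CPM with shPAX8-1 and at 55.9, 54.5, 57.9 and 63.2 CPM with shPAX8-2. In OS-LM1 it was at 197, 189, 189 and 185 CPM with sgNTC18, between 107 and 135 CPM with shPAX8-1 and between 98.3 and 126 CPM with shPAX8-2. Controls and hairpin libraries did not overlap in either line. The fall was 2.28-fold in 786-M1A (-1.19 ± 0.11, adjusted p = 2.0e-07) and 1.63-fold in OS-LM1 (-0.71 ± 0.08, adjusted p = 7.5e-08), a difference of 0.51 ± 0.14 (adjusted p = 0.003). With the GC trend removed the OS-LM1 fall was -0.34 (adjusted p = 3.1e-05).

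BBC3 (chr19:47220824-47232860), which encodes the BH3-only protein PUMA, was low throughout. In 786-M1A it was at 4.39, 6.80, 6.15 and 5.58 CPM with sgNTC18, between 1.77 and 4.76 CPM with shPAX8-1 and between 2.65 and 5.34 CPM with shPAX8-2. The OS-LM1 libraries stood at 7.41, 6.62, 7.57 and 7.68 CPM with sgNTC18, at 2.28, 3.02, 2.93 and 3.34 CPM with shPAX8-1 and at 2.17, 1.85, 4.34 and 2.88 CPM with shPAX8-2. The groups overlapped in 786-M1A and were apart in OS-LM1. BBC3 fell 2.53-fold in OS-LM1 (-1.34 ± 0.17, adjusted p = 5.0e-07) and 1.58-fold in 786-M1A (-0.66 ± 0.23, adjusted p = 0.016), where the call was lost without sgNTC18 replicate 2 (-0.58, adjusted p = 0.053). The difference between the lines was -0.65 ± 0.30 and did not pass (adjusted p = 0.065), but it passed with DESeq2 (-0.67, adjusted p = 0.048), with the GC trend removed (-0.60, 0.0075), with only replicates 1 and 2 of 786-M1A shPAX8-1 (-0.84, 0.0083), and without OS-LM1 shPAX8-2 replicate 3 (-0.80, 0.015), 786-M1A shPAX8-2 replicate 3 (-0.76, 0.03) or 786-M1A shPAX8-1 replicate 4 (-0.74, 0.021).

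RRM2B (chr8:102204501-102238961), the p53-inducible small subunit of ribonucleotide reductase, supplies deoxynucleotides for DNA repair and mitochondrial DNA. In 786-M1A it was at 98.2, 65.2, 72.3 and 77.5 CPM with sgNTC18, at 31.8, 38.9, 63.6 and 57.4 CPM with shPAX8-1 and at 46.4, 42.2, 70.0 and 47.3 CPM with shPAX8-2. Replicate 3 of shPAX8-2 overlapped the controls and the other hairpin libraries lay below them. In OS-LM1 it was at 23.5, 20.4, 26.6 and 28.3 CPM with sgNTC18, at 63.9, 64.2, 73.8 and 54.3 CPM with shPAX8-1 and at 54.9, 63.5, 43.2 and 44.4 CPM with shPAX8-2, with no overlap. RRM2B fell 1.56-fold in 786-M1A (-0.64 ± 0.18, adjusted p = 0.0051) and rose 2.31-fold in OS-LM1 (1.21 ± 0.12, adjusted p = 2.7e-08). The difference of 1.87 ± 0.23 (adjusted p = 1.3e-07) followed a reversed order in the controls, where OS-LM1 had 3.17-fold less RRM2B than 786-M1A. With PAX8 depleted, the group means of the 2 lines lay between 47.9 and 64.0 CPM and their libraries overlapped.

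TP53INP1 (chr8:94925972-94949378), a nuclear protein that acts in autophagy and cell death under stress, rose in both lines. It was at 18.9, 17.1, 17.2 and 18.2 CPM with sgNTC18 in 786-M1A, between 21.7 and 24.5 CPM with shPAX8-1 and between 29 and 31.9 CPM with shPAX8-2. The OS-LM1 libraries stood at 13.9, 14.4, 15.7 and 12.8 CPM with sgNTC18, at 68.7, 72.9, 61.5 and 66.1 CPM with shPAX8-1 and at 55.3, 59.6, 53.8 and 51.9 CPM with shPAX8-2. None of the 6 groups overlapped its neighbour in level. The rise was 1.49-fold in 786-M1A (0.57 ± 0.09, adjusted p = 2.6e-05) and 4.25-fold in OS-LM1 (2.09 ± 0.09, adjusted p = 8.2e-14), a difference of 1.54 ± 0.11 (adjusted p = 4.0e-12).

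ZMAT3 (chr3:179017223-179072513), a zinc finger protein that binds RNA and regulates splicing, also rose in both. It was at 49.6, 33.7, 42.8 and 46.7 CPM with sgNTC18 in 786-M1A, at 48.7, 59.8, 79.1 and 78.3 CPM with shPAX8-1 and at 64.1, 58.5, 63.5 and 49.5 CPM with shPAX8-2. In OS-LM1 it was at 37.1, 34.4, 41.1 and 38.1 CPM with sgNTC18, at 149, 144, 168 and 138 CPM with shPAX8-1 and at 138, 167, 118 and 115 CPM with shPAX8-2. Each hairpin group had a library within the range of the controls in 786-M1A, and all were far above it in OS-LM1. The rise was 1.47-fold in 786-M1A (0.55 ± 0.14, adjusted p = 0.0028) and 3.74-fold in OS-LM1 (1.90 ± 0.10, adjusted p = 4.0e-12), a difference of 1.38 ± 0.18 (adjusted p = 2.1e-07).

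The change with PAX8 depletion differed between the lines for 8 of the 9 members, all 8 with a higher log2 fold change in OS-LM1. For BAX this was a smaller fall, and TP53I3 had no called change in OS-LM1. Over all 15665 genes tested, 58.7% passed this test, 29.9% higher in OS-LM1 and 28.8% lower. The median difference over the members was 1.19, against 0.00 over all genes. Both lines' changes are measured against their own sgNTC18 libraries, which already differed for 7 of the 9 members, where 63.0% of all genes did. In the controls OS-LM1 had more MDM2 (3.02-fold), TP53I3 (6.70-fold), FAS (2.24-fold), BAX (1.73-fold) and SESN1 (1.52-fold) and less RRM2B (3.17-fold) and TP53INP1 (1.26-fold) than 786-M1A, with adjusted p from 3.0e-12 to 0.0019. BBC3 (0.36, interval -0.10 to 0.81) and ZMAT3 (-0.20, interval -0.48 to 0.08) did not pass, but both were called with the GC trend removed, BBC3 at 1.16 (adjusted p = 5.1e-08) and ZMAT3 at -0.45 (adjusted p = 2.9e-05). The lines are 1 cell line each, so the comparison says nothing of other carcinomas.

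Levels of different genes were compared per length, in TPM. BAX was the most abundant member in all 6 groups, from 88.1 ± 17.9 TPM (SD, n = 4) in 786-M1A shPAX8-1 to 449 ± 14.4 TPM in OS-LM1 sgNTC18, and its range did not overlap that of the next member in any group. In 786-M1A sgNTC18 it was followed by FAS (37.5 ± 4.69 TPM), RRM2B (29.6 ± 6.47 TPM) and MDM2 (25.1 ± 2.80 TPM), whose ranges overlapped in that order, and then by the other 5 members at 3.97 to 8.83 TPM. In OS-LM1 sgNTC18, FAS (79.7 ± 3.49 TPM) and MDM2 (71.7 ± 7.37 TPM) overlapped, TP53I3 (28.2 ± 1.05 TPM) stood apart, and the other 5 lay at 4.40 to 8.78 TPM. TP53INP1 moved from the last place in OS-LM1 sgNTC18 (4.40 ± 0.33 TPM) to 21.2 ± 2.86 TPM with shPAX8-1, and BBC3 took the last place with both hairpins.

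The constructs were also tested singly, each against the same sgNTC18 libraries of its line, so the comparisons of a line share their controls. With shPAX8-1, 8 of the 9 members were called in 786-M1A (70.6% of all genes) and 8 in OS-LM1 (71.4%). With shPAX8-2, 7 were called in 786-M1A (62.5%) and 7 in OS-LM1 (68.4%). In 786-M1A, TP53I3 had log2 changes of -3.27 ± 0.42 with shPAX8-1 and -2.69 ± 0.40 with shPAX8-2, BAX -1.48 ± 0.14 and -0.90 ± 0.14, and FAS -0.78 ± 0.15 and -1.02 ± 0.15. In OS-LM1, TP53INP1 had 2.22 ± 0.10 and 1.96 ± 0.10, ZMAT3 1.97 ± 0.11 and 1.84 ± 0.11, and BBC3 -1.36 ± 0.20 and -1.32 ± 0.20. Not called were MDM2 with shPAX8-1 and SESN1 and BBC3 with shPAX8-2 in 786-M1A, TP53I3 with either and FAS with shPAX8-2 in OS-LM1. Removing the GC trend moved 7 of these calls. It added MDM2 with shPAX8-1 (-0.56 in place of -0.08, adjusted p = 1.6e-07) and BBC3 with shPAX8-2 (-0.51, 0.011) in 786-M1A and TP53I3 with shPAX8-1 in OS-LM1 (0.50, 2.1e-05). It took away TP53INP1 (-0.08, adjusted p = 0.577), BBC3 (-0.14, 0.459) and ZMAT3 (0.12, 0.238) with shPAX8-1 in 786-M1A and FAS with shPAX8-1 in OS-LM1 (0.12, 0.212). The shPAX8-1 calls in 786-M1A also varied with the pair of libraries used. With only replicates 1 and 2, BBC3 (-0.50, adjusted p = 0.1) and ZMAT3 (0.32, 0.061) did not pass and MDM2 did (-0.37, 0.01), and with only replicates 3 and 4, RRM2B (-0.36, 0.079) and SESN1 (-0.26, 0.193) did not. Other single-construct calls in 786-M1A were lost when 1 library was left out. For SESN1 with shPAX8-1 (-0.44, adjusted p = 0.022) this was so for sgNTC18 replicate 2 (-0.38, adjusted p = 0.061) and shPAX8-1 replicates 1 (-0.35, 0.061) and 2 (-0.40, 0.052). For RRM2B with shPAX8-2 (-0.59, adjusted p = 0.025) it was so for sgNTC18 replicate 1 (-0.47, 0.085) and shPAX8-2 replicates 1 (-0.54, 0.066), 2 (-0.50, 0.075) and 4 (-0.56, 0.059). For ZMAT3 with shPAX8-2 (0.47, adjusted p = 0.021) it was so for sgNTC18 replicate 2 (0.36, 0.076) and shPAX8-2 replicate 1 (0.43, 0.052). BBC3 with shPAX8-2 was called (-0.74, adjusted p = 0.038) without that group's replicate 2, and also (-0.54, 0.048) without shPAX8-1 replicate 4.

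Set against each other, the hairpins differed for 3 members in 786-M1A, where 47.1% of all genes differed. BAX (-0.58 ± 0.14, adjusted p = 0.0034), SESN1 (-0.54 ± 0.16, adjusted p = 0.012) and TP53INP1 (-0.41 ± 0.10, adjusted p = 0.0035) were lower with shPAX8-1. With the GC trend removed the BAX difference was -0.16 (adjusted p = 0.164). The other members' intervals were 0.03 to 0.55 for MDM2, -0.06 to 0.53 for FAS, -0.14 to 0.49 for ZMAT3, -0.52 to 0.32 for RRM2B, -0.79 to 0.30 for BBC3 and -1.60 to 0.44 for TP53I3, and the last leaves a difference of some size undetectable at 1 to 11 counts a library. Some of these were called under other settings. RRM2B was lower with shPAX8-1 with the GC trend removed (-0.64, adjusted p = 2.8e-05) and with only shPAX8-1 replicates 1 and 2 (-0.53, 0.048), and ZMAT3 was lower with the trend removed (-0.26, 0.023). With only replicates 3 and 4, MDM2 (0.51, adjusted p = 5.8e-04), ZMAT3 (0.41, 0.015) and FAS (0.44, 0.012) were higher with shPAX8-1 and SESN1 was not called (-0.37, 0.085). MDM2 was also called without shPAX8-1 replicate 1 (0.39, adjusted p = 0.012). In OS-LM1, TP53INP1 alone was called (0.26 ± 0.09, adjusted p = 0.039), where 29.1% of all genes differed, and that call was lost in 6 of the leave-one-library-out fits and with the GC trend removed (0.19, adjusted p = 0.098). Over the other 8 members in OS-LM1 the intervals lay within -0.46 to 0.54. Of these, FAS (0.29, adjusted p = 0.027), RRM2B (0.41, 0.014) and ZMAT3 (0.25, 0.046) were called without shPAX8-2 replicate 2, FAS without shPAX8-1 replicate 2 (0.30, 0.04), and TP53I3 without shPAX8-2 replicate 3 (0.32, 0.039) and with the GC trend removed (0.32, 0.0069). The line changed the construct difference for TP53INP1 (0.70 ± 0.12, adjusted p = 1.4e-04), SESN1 (0.65 ± 0.18, adjusted p = 0.01) and BAX (0.65 ± 0.17, adjusted p = 0.0047), where 27.2% of all genes passed. The BAX call was lost with only replicates 1 and 2 of 786-M1A shPAX8-1 (0.43, adjusted p = 0.052) and the SESN1 call with only replicates 3 and 4 (0.48, 0.052). RRM2B was called with the GC trend removed (0.82, adjusted p = 3.1e-05) and with only replicates 1 and 2 (0.85, 0.019), and MDM2 with only replicates 3 and 4 (-0.51, 0.0092) and without shPAX8-1 replicate 1 (-0.41, 0.05). For PAX8 itself the shPAX8-1 level minus the shPAX8-2 level was -1.18 in 786-M1A (adjusted p = 4.0e-05) and -0.05 in OS-LM1 (adjusted p = 0.797).

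Within 786-M1A shPAX8-1 the libraries split into replicates 1 and 2 and replicates 3 and 4. The 2 pairs were 70.9 and 80.6 against 106 and 106 CPM for MDM2, 31.8 and 38.9 against 63.6 and 57.4 CPM for RRM2B, and 48.7 and 59.8 against 79.1 and 78.3 CPM for ZMAT3. BAX ran the other way, at 43.9 and 46.1 against 30.0 and 34.5 CPM. Over both constructs, RRM2B changed by -0.89 with the first pair only and by -0.48 with the second only, ZMAT3 by 0.38 and 0.67, and BAX by -1.11 and -1.32, all called at adjusted p from 5.9e-10 to 0.0065. The count of members called was 8 with the first pair, where 10729 of 14987 genes tested were called. With the second pair it was 7, where 10954 of 14883 were. In OS-LM1 shPAX8-2, MDM2, TP53INP1, SESN1, RRM2B and ZMAT3 were higher in replicates 1 and 2 than in replicates 3 and 4. BBC3 and BAX were lower, and FAS and TP53I3 overlapped. RRM2B was at 54.9 and 63.5 against 43.2 and 44.4 CPM, and BAX at 110 and 98.3 against 126 and 123 CPM. Library totals were 14567945 and 17928129 against 52059375 and 33555410. No fit by pair was run for that group, and the part of depth was not tested.

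GC content moved with the fold changes, and its part was not tested beyond a fit that removes its trend. Over 13048 genes in 786-M1A and 13551 in OS-LM1, the rank correlation of fold change with transcript GC was -0.254 and -0.305, a description across genes. The members fall into a low-GC set of 6 (RRM2B 35.1%, ZMAT3 38.2%, TP53INP1 39.4%, MDM2 39.5%, SESN1 40.6% and FAS 42.1%) and a high-GC set of 3 (BAX 58.9%, TP53I3 59.4% and BBC3 69.7%). In OS-LM1 all 6 of the first set rose and none of the 3 of the second did. With the trend removed, TP53INP1 (1.79), ZMAT3 (1.56), RRM2B (0.78), SESN1 (0.46) and MDM2 (0.35) still rose in OS-LM1, BBC3 (-0.97) and BAX (-0.34) still fell, and TP53I3 was called higher (0.34, adjusted p = 3.0e-04). In 786-M1A the fit without the trend called 7 members lower, MDM2 (-0.52, adjusted p = 5.1e-08) and SESN1 (-0.43, adjusted p = 0.0035) among them, and TP53INP1 (0.31) and ZMAT3 (0.25) higher. Of all 14452 genes tested, that fit called 5605 lower and 5428 higher. The rank correlation was -0.048 for the difference between the lines, and with the trend removed 8 members had a higher change in OS-LM1 and BBC3 (-0.60, adjusted p = 0.0075) a lower one. Of all 15665 genes tested, 5237 were then called higher in OS-LM1 and 4882 lower.

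**Figure D3:**
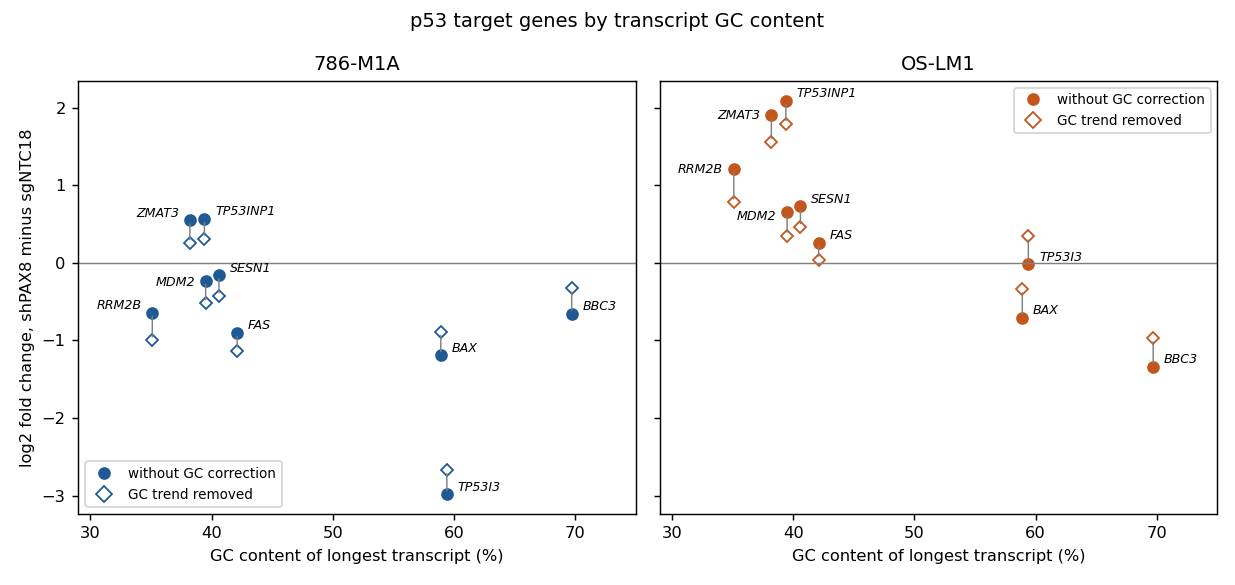
Log2 fold change between shPAX8 (mean of both constructs) and sgNTC18 against GC content of the longest transcript (x axis, percent) for the 9 p53 target genes, in 786-M1A (left) and OS-LM1 (right). Filled circles are without GC correction and open diamonds with the GC trend removed. Removal lowers the 6 low-GC genes and raises the 3 high-GC genes in both lines, from -0.43 for RRM2B to 0.37 for BAX and BBC3 in OS-LM1.

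CDKN1A, the cyclin-dependent kinase inhibitor p21, was at 659 to 746 CPM with sgNTC18 in 786-M1A, at 174 to 223 CPM with shPAX8-1 and at 382 to 427 CPM with shPAX8-2. In OS-LM1 it was at 414 to 483 CPM with sgNTC18 and at 590 to 690 CPM with either hairpin. It fell 2.48-fold in 786-M1A (-1.31 ± 0.08, adjusted p = 1.6e-09) and rose 1.41-fold in OS-LM1 (0.50 ± 0.07, adjusted p = 3.7e-06). MDM4, the partner of MDM2 that inhibits p53, rose in 786-M1A (0.98 ± 0.12, adjusted p = 2.7e-06) and had a change of 0.04 ± 0.12 in OS-LM1 (adjusted p = 0.756). These are RNA levels, and p53 protein was not measured here.

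The rest of the pathway was read from a list of 51 regulators and targets, of which 48 were tested in each line. This list, too, was chosen with earlier results of these data known. Its genes, CDKN1A and MDM4 included, were not rechecked with the GC trend removed or under the other alternative fits. Removing that trend shifted the members' log2 changes in OS-LM1 by -0.43 (RRM2B) to 0.37 (BAX and BBC3). In 786-M1A, 34 of the 48 passed, near the 70.4% of all genes, of which 24 fell and 10 rose (34.7% and 35.7% of all genes), with a median log2 change of -0.33. In OS-LM1, 39 passed, where 73.4% of all genes did, of which 30 rose and 9 fell (36.4% and 37.1% of all genes), with a median of 0.41. The change was higher in OS-LM1 than in 786-M1A for 28 and lower for 5 of 48 (29.9% and 28.8% of all genes), with a median difference of 0.61. The medians over all genes were 0.04, -0.01 and 0.00. The counts by role are of 3 to 10 genes each and are read against the same shares, 34.7% lower and 35.7% higher over all genes in 786-M1A and 37.1% lower and 36.4% higher in OS-LM1. Of the metabolic, redox and autophagy genes, 5 of 9 fell and none rose in 786-M1A, and 6 rose and 1 fell in OS-LM1. Of 8 cell cycle genes, 5 fell and 2 rose in 786-M1A and 6 rose and 1 fell in OS-LM1. Among regulators of p53, 6 of 10 rose and 3 fell in 786-M1A, and 7 of 9 rose and 1 fell in OS-LM1. Apoptosis genes gave 4 lower and none higher of 9 in 786-M1A and 5 lower and 3 higher of 10 in OS-LM1.

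The largest changes of the list are given by the mean of both constructs. The largest falls in 786-M1A were those of TRIM22 (-2.48 ± 0.10, adjusted p = 3.0e-11), an antiviral ubiquitin ligase, the DNA damage sensor DDB2 (-1.94 ± 0.11, adjusted p = 7.9e-10) and PHLDA3 (-1.91 ± 0.16, adjusted p = 5.9e-08), an inhibitor of AKT. In OS-LM1 the same genes had changes of 0.50 ± 0.07 (adjusted p = 5.3e-06), -0.19 ± 0.09 (adjusted p = 0.08) and -0.78 ± 0.11 (adjusted p = 2.2e-06). The largest rises in 786-M1A were those of ANKRA2 (1.66 ± 0.14, adjusted p = 6.1e-08), the repressor E2F7 (1.54 ± 0.11, adjusted p = 8.8e-09) and the DNA damage kinase ATM (1.48 ± 0.13, adjusted p = 8.4e-08), with changes of 0.66 ± 0.11, 0.16 ± 0.07 and 0.32 ± 0.12 in OS-LM1. The order in 786-M1A differed between the constructs: E2F7 came first among these rises with shPAX8-1 (2.37, against 1.89 for ANKRA2 and 1.61 for ATM) and rose by 0.70 with shPAX8-2, less than MDM4 (0.82), where ANKRA2 rose by 1.42 and ATM by 1.34. DDB2 fell by 2.81 with shPAX8-1 and by 1.07 with shPAX8-2, TRIM22 by 3.04 and 1.93 and PHLDA3 by 2.44 and 1.37. In OS-LM1 the largest rises were those of RPS27L (1.80 ± 0.26, adjusted p = 7.5e-05), a paralogue of a ribosomal protein whose reads may be shared with near-identical copies, SUSD6 (1.40 ± 0.09, adjusted p = 2.1e-11) and the mitochondrial protein SPATA18 (1.28 ± 0.08, adjusted p = 1.5e-11). The largest falls there were those of SFN (-1.48 ± 0.10, adjusted p = 5.1e-11), a 14-3-3 protein that holds cells in G2, PIDD1 (-1.18 ± 0.25, adjusted p = 5.7e-04) and the checkpoint kinase CHEK2 (-1.15 ± 0.09, adjusted p = 7.0e-10). SFN was also lower in 786-M1A (-1.70 ± 0.26, adjusted p = 3.2e-05), but at only 4 to 10 expected counts in each hairpin library against 25 to 41 in the controls. CHEK2 was higher in 786-M1A (0.49 ± 0.10, adjusted p = 4.7e-04), a difference between the lines of -1.60 ± 0.12 (adjusted p = 2.0e-11).

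The members did not move as a unit over the libraries. With each line's mean subtracted, the Pearson correlation of log2 CPM over the 24 libraries ran from -0.867 to 0.936 over the 36 pairs of members, with a median of 0.318. Construct means were not subtracted, so these values include the changes with the hairpins and do not measure variation within a group. The libraries also share constructs, depth and GC trend, so the values are descriptive. The genes most like MDM2 by this measure were PRKAA1 (0.981), GPATCH2 (0.964), BCLAF1 (0.958), BTBD1 (0.951) and VEZT (0.947), and their transcripts had 36.4% to 41.0% GC.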

How the data were processed

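RNA from 24 samples was sequenced. The labels name a stranded mRNA kit, and the study's methods name other kits, so the kit is uncertain. Per the study's methods the authors aligned reads to hg38 and estimated gene levels with RSEM and Bowtie2. The deposited values used were expected counts, which are estimated counts rounded here to whole numbers, and TPM, which the authors scaled per transcript length. In all 24 files the effective length equalled the length, so TPM holds no fragment-length correction.

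Counts were filtered with filterByExpr, TMM-normalized and tested with edgeR's robust quasi-likelihood test (edgeR 4.0.16, R 4.3.3), with Benjamini-Hochberg adjustment over all genes: 14452 in 786-M1A, 15049 in OS-LM1 and 15665 over both lines. Within-line comparisons used 12 libraries and comparisons between lines 24. Intervals are 1.96 standard errors each way (about 95%) and unadjusted. CPM in the text are TMM-normalized, and correlations used a prior count of 2. GC content came from the longest GENCODE transcript (87.5% of genes), with a spline of 5 degrees of freedom as an offset. Code was tested on simulated data. The 9 members and the 51-gene list were chosen with earlier results of these data known. By a fixed rule, all members, PAX8, CDKN1A and MDM4 were named whatever their test result. The result for 1 other gene that this rule names is not reported here. The other named genes were the 3 largest rises and 3 largest falls of the list in each line and the 5 genes most correlated with MDM2. Alternatives were DESeq2 (1.42.0), its size factors, no filter beyond 1 count, stricter thresholds, a replicate block, GC removal, 1 joint fit and left-out libraries. Replicate libraries of a group differed by more than sampling noise (chi-square per gene 3.733 to 89.578), so none was counted as a duplicate. Counting error limits the low genes, TP53I3 in 786-M1A first. Sequences came from the study's oligonucleotide list, hg38 and RefSeq. The 2 members that were not in the RefSeq promoter table were not searched.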

Additional observations from a re-analysis of the deposited data

Results flagged for a closer look

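The change with PAX8 depletion differed between OS-LM1 and 786-M1A, by the edgeR interaction test, for 8 members, always with a higher log2 fold change in OS-LM1. Of all 15665 genes tested, 58.7% passed, 29.9% higher in OS-LM1 and 28.8% lower. A higher change is not always a rise: BAX fell in both lines, and TP53I3 had no called change in OS-LM1. The differences (log2) were 2.97 for TP53I3, 1.87 for RRM2B, 1.54 for TP53INP1, 1.38 for ZMAT3, 1.19 for FAS, 0.92 for SESN1, 0.91 for MDM2 and 0.51 for BAX, with adjusted p from 4.0e-12 to 0.003. PAX8 depletion itself was deeper in 786-M1A, by 1.87 on the same scale, and its part in these differences was not tested.

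The difference between the 2 hairpins also changed with the line for 3 members, where 27.2% of all 15665 genes passed. It changed by 0.70 for TP53INP1 (adjusted p = 1.4e-04), 0.65 for SESN1 (adjusted p = 0.01) and 0.65 for BAX (adjusted p = 0.0047). The rank correlation of this difference with GC content was 0.397 over 14083 genes, and with the GC trend removed the values were 0.94 for TP53INP1, 0.87 for SESN1 and 0.31 for BAX, and RRM2B was then called too (0.82, adjusted p = 3.1e-05). The call was lost for BAX with only replicates 1 and 2 of 786-M1A shPAX8-1 (0.43, adjusted p = 0.052) and for SESN1 with only replicates 3 and 4 (0.48, adjusted p = 0.052). No library stood apart from its group of 4 in any of the 54 combinations of member and group by Dixon's test, where chance would give about 2.7. The test looks for 1 outlying library, so it could not detect a split into 2 pairs such as that of 786-M1A shPAX8-1.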

How the results depend on the processing

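Of 2187 single-member values recomputed under an alternative, 2113 kept their direction and side of the threshold or changed sign without being called (42), 34 lost the call and 37 gained it. The other 3 changed sign with the GC trend removed, and none was called in both directions. TP53I3 in OS-LM1 over both constructs (0.34) and ZMAT3 between the hairpins in 786-M1A (-0.26) were called only with the trend removed. TP53INP1 with shPAX8-1 in 786-M1A (-0.08) was called only without its removal. Of 265 counts of members called, 254 stayed within 1.5 times. The exceptions were shPAX8-2 in 786-M1A at adjusted p under 0.01 (4 in place of 7), the hairpins against each other in 786-M1A at a log2 change over 0.58 (0 in place of 3) and with only shPAX8-1 replicates 3 and 4 (5), and the hairpins against each other in OS-LM1, where 1 member became 0 at adjusted p under 0.01, 0 at a log2 change over 0.58 and 0 with a replicate block. Leaving out 1 library gave 0 to 4 there. Of all genes tested between the hairpins, 30.0% in 786-M1A and 13.1% in OS-LM1 were called at a log2 change over 0.58. With only shPAX8-1 replicates 3 and 4 in 786-M1A, 9048 of 14883 genes were called. With a replicate block in OS-LM1, 3642 of 15049 were. The share of all genes at adjusted p under 0.01 was not computed. The other leave-one-out ranges were 6 to 8 and 8 to 8 over both constructs in 786-M1A and OS-LM1, 7 to 8 and 5 to 8 for shPAX8-1 and shPAX8-2 in 786-M1A, 8 to 8 and 7 to 7 in OS-LM1, 3 to 4 between the hairpins in 786-M1A, 7 to 7 between the lines' controls, 8 to 9 for the line by depletion difference and 3 to 4 for the line by construct difference. Over 24 same-numbered pairs the correlation of deviations was -0.319 to 0.271 (mean 0.003). Between the hairpins of 786-M1A all 4 were positive (0.217, 0.154, 0.271 and 0.037), but 1 was under 0.1 and replicate 1 of shPAX8-1 correlated more with replicate 2 of shPAX8-2 (0.306), so the numbers were not taken to pair the libraries. The block changed no other call of a member. TP53I3 in 786-M1A, at 1 to 11 counts in each hairpin library, is limited by depth. The causes of these changes were not tested.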
